A study of Mus musculus with 12 samples.

Results

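The genes described here are 37 members of the routes by which a cell takes up and uses glucose and responds to low oxygen. They are 3 transporters, 16 glycolytic enzymes, 2 bifunctional regulators of glycolysis, 4 pentose phosphate enzymes, 2 enzymes of glycogen metabolism, 4 oxygen-sensing genes and 6 hypoxia targets. They were taken by symbol from the GRCm38 (mm10) annotation, and each of the 37 matched exactly 1 of the 48709 gene rows of the count table. Neutrophils had been sorted by flow cytometry as Ly6G-high, Ly6C-intermediate, CD11b+ and CD45+ cells from male C57BL/6N mice aged 8 to 10 weeks, and their RNA was sequenced in bulk. Control splenic neutrophils came from 3 untreated spleens. The 24-hour neutrophils came from 4 livers and the 72-hour neutrophils from 5 livers, taken after 1 intraperitoneal dose of carbon tetrachloride (CCl4), a hepatotoxin, at 1 mL/kg in corn oil. No gene was deleted or introduced in any group. The controls differ from the liver groups in organ and in cell isolation as well as in injury and oil, so these cannot be told apart. Livers were minced, digested with collagenase and separated on a Percoll gradient, whereas spleens were dissociated mechanically. The 3 spleen libraries served as controls for both liver groups. The labels number the replicates without naming separate animals, so p-values measure the spread between these samples.

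Glucose enters the cell through facilitative transporters, is split to pyruvate by the glycolytic enzymes, and leaves as lactate when pyruvate is reduced rather than oxidized. The pentose phosphate pathway branches off at glucose 6-phosphate and yields NADPH, which the neutrophil oxidase uses to make superoxide. Mature neutrophils have few mitochondria and are known for relying on glycolysis and on their own glycogen. When oxygen is low, hydroxylation of HIF-1α by the EGLN enzymes slows, its destruction through VHL stops, and HIF-1 binds short DNA elements in the promoters of transporters, glycolytic enzymes and its own regulators.

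The scale of these values sets a limit on all of them. The libraries held 1267089 to 3017403 counts on genes, and the 37 members together took 0.0879% to 0.247% of them. Pkm, with the most counts of any member, ranked 556th among all genes. A stranded kit was used for the libraries, the strand option of the counter is not stated, and 2.71% to 3.18% of the uniquely aligned reads of a library were counted on a gene. Of the 100 genes with the most counts, 96 shared exon bases with a gene of the other strand, as did 39.9% of the tested genes, and none was a member. A member's value is therefore the number of reads assigned to its annotated strand, and it cannot be told apart here whether these are reads of its mRNA or reads left on that strand by counting the other one. In bulk RNA, fewer cells with a transcript and less of it per cell cannot be told apart either. Several glycolytic genes, among them Gapdh, Pkm, Aldoa, Pgk1, Ldha, Eno1, Tpi1 and Pgam1, are known to have processed pseudogenes that can share reads with them, and their values carry that uncertainty.

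Libraries differed in ways that touch the members. Spleen replicate 3 stood apart from the other spleens: its summed member level was 1137 normalized CPM (counts scaled to the TMM-adjusted library size) against 1997 and 1986. Its summed level of 10 neutrophil markers was 2164 against 9152 and 9123. The liver libraries had 1148 to 2779, so on this sum spleen replicates 1 and 2 stood apart from all other libraries. S100a9 had 339 in spleen replicate 3 against 3937 and 3969. Csf3r alone of these markers was higher there, at 569 against 526 and 463. In 72-hour replicates 2 and 3, 1.91% and 1.98% of reads were unaligned, against 49.6% to 50.7% elsewhere, and 24-hour replicate 4 had 147308 ambiguous reads against 9257 to 35212 in the others. The 24-hour libraries also split. Replicates 1 and 2 had summed member levels of 1675 and 1725, against 1107 and 1196 in replicates 3 and 4. Their neutrophil markers summed to 2327 and 2681, against 1148 and 1299. Results that change without such a library are given with and without it. Spleen replicates 1 and 2 were the closest pair within any group, with a chi-square per degree of freedom of 2.47 between their counts. With spleen replicate 3 they had 37.5 and 41.3, and pairs within the liver groups had 6.72 to 38.1. Fits without spleen replicate 3 rest on those 2 close controls. A small p in such a fit depends in part on that narrow spread.

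Of the 37 members, 35 had more than 1 CPM in at least 3 libraries and entered edgeR's quasi-likelihood test, fitted once over all 12488 genes that passed. Adm, the vasodilator peptide adrenomedullin, had 0 counts in every library, and Aldoc, the brain-type aldolase, had 0 to 4. A member was called at a Benjamini-Hochberg adjusted p below 0.05 and a log2 fold change of 0.5 or more in size (SE below is the standard error of the log2 fold change, log2FC). In 24-hour against control splenic neutrophils, 3 members were higher (Slc2a1, Egln3 and Ddit4) and 4 were lower (Slc2a3, Bnip3l, Tkt and Pygl). Over all genes, 5.35% were called higher and 4.4% lower in that comparison. With upper-quartile scaling the members called were 4 higher and 3 lower, and with DESeq2 size factors 4 and 4. Of all 12488 genes, 799 were called higher and 465 lower with the first scaling, and 703 and 527 with the second. In 72-hour against control neutrophils, 2 members were higher (Slc2a1 and Slc16a3) and 2 lower (Gapdh and Tkt), where 2.63% of genes were called higher and 2.71% lower. Between the liver groups, Slc2a3 alone was called, higher at 72 hours, and 1.65% of all genes were called higher and 2.84% lower. An unadjusted p below 0.05 was found for 14, 12 and 4 of the 35 members in the 3 comparisons, and for 26.2%, 17.1% and 20.9% of all tested genes. Without spleen replicate 3, the calls at 24 hours became 1 higher and 7 lower, and those at 72 hours 0 higher and 6 lower. Its only controls are the 2 closest spleens. In that fit 6.04% of all genes were called higher and 4.57% lower at 24 hours, and 3.42% and 3.16% at 72 hours. Between the liver groups it gave 1 member higher and 0 lower by edgeR, with 2.47% and 4.05% of all genes.

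Over the tested members, the median log2FC was 0.14 at 24 hours and -0.04 at 72 hours against spleen, and -0.12 between the liver groups. The median over all tested genes was -0.23, -0.02 and 0.18, so the members' median lay above that of all genes at 24 hours and below it between the liver groups. By role, the medians at 24 hours were 0.95 for the transporters, 0.14 for the glycolytic enzymes, 1.05 for the oxygen-sensing genes, 0.85 for the hypoxia targets and -0.53 for the pentose phosphate enzymes. At 72 hours against spleen they were 1.11, -0.18, 0.54, 0.81 and -0.54. The groups are small and their members share libraries, and the medians are a description without a test.

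**Figure D1:**
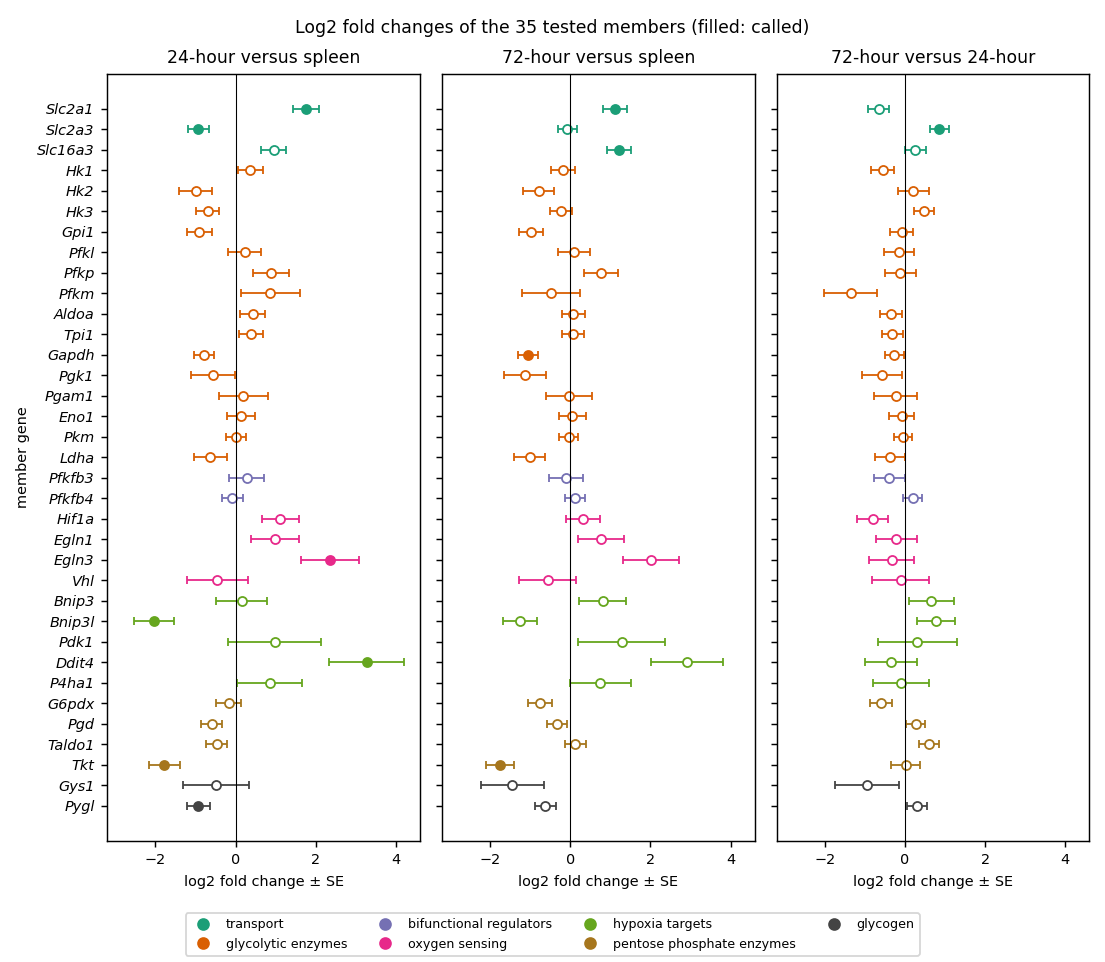
Log2 fold changes (x axis) of the 35 tested members (y axis), coloured by role, in the 3 comparisons; bars are the SE of the edgeR fit and filled points are called members. The called points are Slc2a1, Slc2a3, Egln3, Bnip3l, Ddit4, Tkt and Pygl in the first panel, Slc2a1, Slc16a3, Gapdh and Tkt in the second, and Slc2a3 in the third, while Pkm lies near zero in each, at 0.01, -0.04 and -0.05. The points of Ddit4 against spleen depend on the prior count and are not to be read as sizes.

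Each of the 3 transporters was called in at least 1 comparison. Slc2a1 encodes GLUT1, the widely expressed glucose transporter and a classic HIF-1 target. It measured 16.7, 11.6 and 11.3 normalized CPM in spleen replicates 1 to 3, then 52.3, 48.6, 42.4 and 34.3 in the 24-hour replicates 1 to 4. The 72-hour replicates 1 to 5 had 26.6, 25.9, 28.2, 22.9 and 38.3. Every liver library lay above every spleen library, and only 72-hour replicate 5 reached into the 24-hour range. EdgeR gave a log2FC of 1.76 at 24 hours (SE 0.32, edgeR adjusted p = 0.00102), the smallest adjusted p of any member in that comparison, and it was called in each of 22 alternatives (the one without opposite-strand exons leaves it out), with values from 1.65 to 1.96. At 72 hours it was 1.11 (SE 0.30, edgeR adjusted p = 0.0313). That call did not hold without spleen replicate 1, 2 or 3 or 72-hour replicate 1, 2, 3 or 5, with a log2FC from 0.98 to 1.30 and an adjusted p of up to 0.179. It was also lost with no filter, with the replicate block, with only the compared groups in the fit and without both 72-hour replicates 2 and 3, so in 11 of 22 alternatives. The fall of 0.65 on the log2 scale between 24 and 72 hours did not pass (SE 0.26, edgeR adjusted p = 0.155).

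Slc2a3 encodes GLUT3, the high-affinity glucose transporter of neurons and leukocytes, and it moved the other way. Its levels were 117, 105 and 108 normalized CPM in the spleens and 62.4, 68.4, 43.8 and 56.9 at 24 hours. At 72 hours they were 83.5, 95.7, 87.3, 153 and 106. All 24-hour libraries lay below all libraries of both other groups, and the spleen values fell inside the 72-hour range. The log2FC at 24 hours against spleen was -0.93 (SE 0.26, edgeR adjusted p = 0.0238), at 72 hours against spleen -0.07 (SE 0.24, edgeR adjusted p = 0.939), and from 24 to 72 hours 0.86 (SE 0.23, edgeR adjusted p = 0.0381). The 24-hour call did not hold without spleen replicate 1 or 2 or 24-hour replicate 3 or 4, where the log2FCs of all left-out fits ran from -1.02 to -0.82 and the adjusted p reached 0.0925, nor among genes with no opposite-strand exon (adjusted p = 0.0721). The call between the liver groups failed in 10 of 12 fits with a library removed, those without spleen replicate 3 and 72-hour replicate 1 being the exceptions. Its log2FC stayed between 0.68 and 0.95 there, with an adjusted p of up to 0.0922, and 6 other alternatives did not give the call either (adjusted p of up to 0.147).

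Slc16a3 encodes MCT4, the monocarboxylate carrier through which glycolytic cells export lactate. The spleens had 44.1, 46.0 and 35.7 normalized CPM, the 24-hour libraries 80.1, 86.4, 79.9 and 77.3, and the 72-hour libraries 83.5, 106, 167, 58.4 and 68.1. Both liver groups lay wholly above the spleens, and the 72-hour replicates spread most, with replicate 3 highest. Its log2FC was 0.95 at 24 hours (SE 0.31, edgeR adjusted p = 0.0540), just short of the threshold and past it with DESeq2 size factors (0.97) or upper-quartile scaling (1.02), and 1.21 at 72 hours (SE 0.30, edgeR adjusted p = 0.0164). The 72-hour call did not hold without any 1 spleen or without 72-hour replicate 3, with values from 0.92 to 1.34 and an adjusted p of up to 0.0720. Without both 72-hour replicates 2 and 3, the libraries of low unaligned share, it was 0.74 (adjusted p = 0.206), and with only the compared groups in the fit the call was lost as well.

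**Figure D2:**
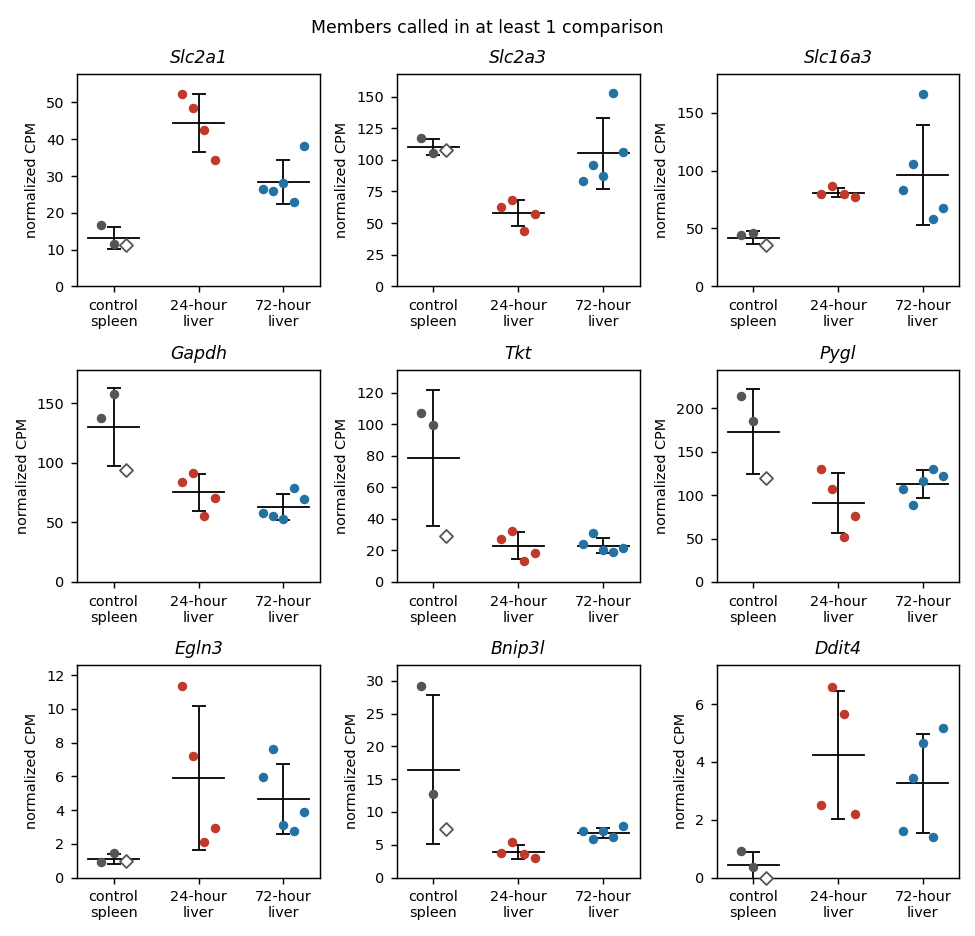
Normalized CPM (y axis, linear from 0) of the 9 called members in each library by group (x axis); lines are means, bars are 1 SD (n = 3, 4 and 5), and the open diamond is spleen replicate 3. Slc2a1 and Slc16a3 lie above the spleens in every liver library, Slc2a3 is low in the 4 libraries at 24 hours only, and spleen replicate 3 sits near the liver libraries for Tkt at 29.3.

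HIF-1 binds the core letters ACGTG and GCGTG, and these were searched on both strands in the 250 bases before each RefSeq start (GRCm38.p6). The palindrome CACGTG holds ACGTG on both strands and was counted on each, and the 2 strings can share an end base. Of the 35 members with a promoter entry, 31 held a match in at least 1 window, which is 88.6%. The share was 41.5% of the 27025 genes in the table and 59.8% of the 8200 tested genes with an entry. The members were chosen as genes of glycolysis and hypoxia, some of them known HIF-1 targets, so these shares are no test. Members also had 49 windows for 35 entries, against 32851 for the 27025 genes. A match of 5 letters is a description of the sequence and not a bound site. The match nearest the start is shown for each called member with an entry, so that the elements of members that were higher (the first 4 lines) can be set beside those of members that were lower. Capitals mark the motif or its reverse complement, and each line is read 5′ to 3′ on the strand of the gene.
Slc2a1, chr4:119108697-119108725, plus strand, 36 bases before the start: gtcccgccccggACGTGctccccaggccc
Slc16a3, chr11:120949041-120949066, plus strand, 14 bases before the start: cgtgcgcgggggACGTGccgcgcgac
Egln3, chr12:54204087-54204115, minus strand, 229 bases before the start: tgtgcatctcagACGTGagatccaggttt
Ddit4, chr10:59951869-59951897, minus strand, 115 bases before the start: gacctggaggggGCGTGgcctcgccggga
Gapdh, chr6:125165801-125165829, minus strand, 44 bases before the start: cacacgcttggtGCGTGcacatttcaaaa
Tkt, chr14:30549051-30549079, plus strand, 68 bases before the start: actaaatgcgggGCGTGgccagaggccac
Pygl, chr12:70227729-70227757, minus strand, 62 bases before the start: ccctggggctccCACGCccccctgggggg
All of these 7 members held a match, whether they were called higher or lower.

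The glycolytic enzymes as a group gave no call at 24 hours: 0 of 15 tested were called by edgeR, with 9 fold changes above zero and 6 below, and 4 had an unadjusted p below 0.05, all with a fold change below zero (Hk2, Hk3, Gpi1 and Gapdh). Of all tested genes 26.2% had such a p at 24 hours, a share near 4 of 15, and 5.35% were called higher and 4.4% lower. At 72 hours, 1 of 15 was called (Gapdh, lower), and 10 lay below zero. The median of all genes was -0.02 there, with 2.63% called higher and 2.71% lower. Between the liver groups none of 15 was called, 13 lay below zero, and no unadjusted p was below 0.05. Among all genes 1.65% were called higher and 2.84% lower, 20.9% had such a p, and the median was 0.18. Their fold changes ran from -0.995 to 0.879 on the log2 scale at 24 hours and from -1.13 to 0.76 at 72 hours.

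Gapdh, glyceraldehyde 3-phosphate dehydrogenase and a common reference gene, had 138, 158 and 93.6 normalized CPM in the spleens. The 24-hour libraries had 83.9, 91.2, 55.2 and 70.0 and the 72-hour libraries 58.0, 54.9, 52.9, 78.5 and 69.4. Every liver library lay below every spleen library, by the narrow margin of 91.2 against 93.6 at 24 hours. The fitted log2FC was -1.05 at 72 hours (SE 0.24, edgeR adjusted p = 0.0106) and -0.79 at 24 hours (SE 0.26, edgeR adjusted p = 0.0577). The 72-hour call did not hold without spleen replicate 1 or 2, with an adjusted p of up to 0.122, and without both 72-hour replicates 2 and 3 (adjusted p = 0.109), and its value stayed between -1.24 and -0.89. Without spleen replicate 3, the 24-hour value was -0.98 and passed (adjusted p = 0.0202).

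Pkm, the pyruvate kinase of most tissues, was the member with the highest level per kilobase of exon in every group, at 50.5, 50.8 and 49.0 normalized CPM per kb in spleen, 24-hour and 72-hour neutrophils. It had 304, 298 and 155 normalized CPM in the spleens, 330, 293, 187 and 205 at 24 hours and 259, 274, 244, 204 and 243 at 72 hours, the groups overlapping throughout. The means were 252 ± 84.3, 254 ± 68.7 and 245 ± 26.3 (SD; n = 3, 4 and 5), and the log2FCs were 0.01, -0.04 and -0.05 with SEs of 0.26, 0.25 and 0.23 (edgeR adjusted p = 0.985, 0.968 and 0.924). Aldoa, the aldolase of muscle and blood cells, came second at 24 hours with 44.5 normalized CPM per kb, against 33.1 in spleen and 34.8 at 72 hours. Its log2FC at 24 hours was 0.43 (SE 0.31, edgeR adjusted p = 0.398). Enolase Eno1, triose phosphate isomerase Tpi1, phosphoglycerate mutase Pgam1, the liver-type phosphofructokinase Pfkl and hexokinase Hk1 likewise had fold changes between 0.14 and 0.39 on the log2 scale at 24 hours, none of which passed.

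Hexokinases trap glucose by phosphorylation, and the inducible Hk2 and the myeloid Hk3 had fold changes below zero in both liver groups. Hk2 had 22.7, 21.7 and 17.0 normalized CPM in the spleens, 15.1, 8.40, 4.24 and 13.1 at 24 hours and 16.3, 15.2, 11.1, 8.34 and 7.79 at 72 hours. No liver library reached the lowest spleen, although the fold changes of -0.995 (SE 0.42, edgeR adjusted p = 0.132) and -0.78 (SE 0.38, edgeR adjusted p = 0.305) did not pass. Hk3 had -0.70 at 24 hours (SE 0.29, edgeR adjusted p = 0.124) and passed there without spleen replicate 3 (-0.91, adjusted p = 0.0478).

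Glucose 6-phosphate isomerase Gpi1, which stands where glycolysis and the pentose phosphate branch part, measured 134, 155 and 68.5 normalized CPM in the spleens. It had 70.0, 98.4, 43.8 and 41.6 at 24 hours and 65.1, 72.9, 62.2, 51.4 and 48.0 at 72 hours. Spleen replicate 3 overlapped the liver libraries and the other spleens lay above all of them. The fold changes were -0.90 (SE 0.32, edgeR adjusted p = 0.0734) and -0.98 (SE 0.30, edgeR adjusted p = 0.0553). Without spleen replicate 3 they became -1.18 (adjusted p = 0.0150) and -1.27 (adjusted p = 0.00782), both calls.

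Ldha, the lactate dehydrogenase subunit that favours lactate formation and a HIF-1 target, had 35.7, 42.0 and 20.9 normalized CPM in the spleens. It had 18.9, 32.4, 24.8 and 8.02 at 24 hours and 10.8, 9.67, 17.95, 23.6 and 20.1 at 72 hours. The highest liver values overlapped spleen replicate 3 in both groups. Its log2FC was -0.63 at 24 hours (SE 0.41, edgeR adjusted p = 0.339) and -1.01 at 72 hours (SE 0.39, edgeR adjusted p = 0.152). Pgk1, phosphoglycerate kinase, was at -0.56 and -1.13 and did not pass either. It became a call at 72 hours without spleen replicate 3 (-1.61, adjusted p = 0.0398).

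Of the phosphofructokinases, the platelet-type Pfkp had fold changes of 0.88 and 0.76 and the muscle-type Pfkm 0.87 and -0.49, with adjusted p-values from 0.223 to 0.83 by edgeR, on 13 to 65 and 0 to 18 counts. The bifunctional regulators set the level of fructose 2,6-bisphosphate, the activator of phosphofructokinase. Pfkfb3, the inducible isoform with high kinase activity, had 15.3, 18.8 and 8.68 normalized CPM in the spleens, 31.5, 19.8, 10.6 and 6.57 at 24 hours and 16.3, 13.8, 12.7, 11.1 and 11.7 at 72 hours. The 24-hour libraries spanned the widest range and the groups overlapped. Its means were 14.3 ± 5.16, 17.1 ± 11.1 and 13.1 ± 2.04 (SD; n = 3, 4 and 5) normalized CPM, and its log2FC was 0.28 at 24 hours (SE 0.44, edgeR adjusted p = 0.742). Pfkfb4 was the steadier, with 39.2 ± 4.47, 37.0 ± 5.91 and 42.3 ± 5.57 (SD, n = 3, 4 and 5) and fold changes of -0.08 and 0.11 against spleen.

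Among the oxygen-sensing genes, Hif1a, the regulated subunit of HIF-1, had 13.9, 19.9 and 6.43 normalized CPM in the spleens. At 24 hours it had 48.6, 37.2, 14.9 and 15.3 and at 72 hours 10.8, 17.3, 15.2, 17.4 and 23.4. The 24-hour libraries split, replicates 1 and 2 lying above all other libraries and replicates 3 and 4 inside the spleen range. The summed level of all members divided the 24-hour libraries in the same way, so the split is not particular to Hif1a. The log2FC was 1.12 at 24 hours (SE 0.45, edgeR adjusted p = 0.118) and 0.32 at 72 hours (SE 0.43, edgeR adjusted p = 0.805), and neither passed.

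Egln3, the HIF prolyl hydroxylase PHD3 and itself a HIF target, had 2, 4 and 3 counts in the spleens, 18, 12, 3 and 4 at 24 hours and 11, 22, 10, 4 and 6 at 72 hours. In normalized CPM the spleens had 0.928, 1.45 and 0.965, and the liver libraries had 2.12 to 11.4 at 24 hours and 2.78 to 7.60 at 72 hours. The liver libraries did not overlap the spleens, and 24-hour replicates 1 and 2 carried most of the counts, as for Hif1a. EdgeR gave a log2FC of 2.35 at 24 hours (SE 0.72, edgeR adjusted p = 0.0414) and 2.02 at 72 hours (SE 0.70, edgeR adjusted p = 0.1004). Summed over libraries, 37 counts stood against 9, a ratio of 5.46 per scaled library size with a 95% exact interval of 2.59 to 12.9 for counting error only. Egln3 was no longer called in 6 of 12 fits with a library removed (spleen replicates 1, 2 and 3, 24-hour replicates 1 and 2, and 72-hour replicate 1), with values from 1.83 to 2.63 and an adjusted p of up to 0.137. Limma-voom, the replicate block and the fit of the compared groups alone did not call it either.

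Egln1, the main HIF prolyl hydroxylase, had 4 to 20 counts, and its 24-hour libraries (5.40 to 6.94 normalized CPM) lay above the spleens (1.45 to 4.50) with a log2FC of 0.98 (SE 0.60, edgeR adjusted p = 0.313). Vhl, the substrate receptor of the ligase that marks HIF-1α, had 0 to 13 counts and fold changes of -0.45 and -0.56, with edgeR adjusted p-values of 0.757 and 0.787.

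The hypoxia targets had the fewest counts and did not move together. Ddit4, or REDD1, an inhibitor of mTORC1 induced by low oxygen, glucocorticoids and other stress, had 2, 1 and 0 counts in the spleens. It had 4, 11, 8 and 3 counts at 24 hours and 3, 10, 15, 2 and 8 at 72 hours. On the CPM scale every liver library lay above every spleen library. Summed counts of 26 against 3 gave a ratio of 11.5 per scaled library size at 24 hours (95% exact interval 3.53 to 59.5, counting error only), and 38 against 3 gave 9.28 at 72 hours (2.94 to 47.0). The edgeR adjusted p was 0.0286 at 24 hours and 0.0655 at 72 hours, and the fitted fold changes depend on the prior count and are not given as sizes. The 24-hour call did not hold without spleen replicate 2 or 3 or 24-hour replicate 2 or 3, with an adjusted p of up to 0.103, or with only the compared groups in the fit (adjusted p = 0.0534), and the 72-hour value passed with limma-voom and with DESeq2.

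Bnip3l, or NIX, a receptor for the removal of mitochondria by autophagy, went the other way from Ddit4. The spleens had 29.2, 12.7 and 7.396 normalized CPM, the 24-hour libraries 3.78, 5.40, 3.54 and 2.92, and the 72-hour libraries 7.05, 5.87, 7.12, 6.25 and 7.79. The 24-hour values lay below both other groups, and spleen replicate 1 was far above the other spleens. Its log2FC was -2.03 at 24 hours (SE 0.49, edgeR adjusted p = 0.0108) and -1.25 at 72 hours (SE 0.43, edgeR adjusted p = 0.104). Without spleen replicate 1 the 24-hour value was -1.33 and did not pass (adjusted p = 0.159), nor did it with limma-voom (adjusted p = 0.0571), and without spleen replicate 3 the values were -2.39 (adjusted p = 0.00243) and -1.61 (adjusted p = 0.0255). Bnip3l is also an abundant transcript of maturing red cells. The summed level of 4 erythroid markers was 1.39 to 4.35 normalized CPM in the spleens, 1.26 to 5.84 at 24 hours and 0.345 to 2.78 at 72 hours, with Hba-a1 and Hbb-bs at 0 in all groups. The strand limit given above holds for these markers too, and a part of red cells in the Bnip3l values was not tested.

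Bnip3, the homologous mitophagy receptor, had 4, 9 and 10 counts in the spleens, 7, 5, 3 and 4 at 24 hours and 10, 16, 27, 4 and 3 at 72 hours. The groups overlapped, and neither comparison with spleen passed, with log2FCs of 0.15 and 0.81 (SE 0.64 and 0.58, edgeR adjusted p = 0.912 and 0.545). Pdk1, the kinase that turns off pyruvate dehydrogenase, had 1, 3 and 2 counts in the spleens, 2, 2, 0 and 5 at 24 hours and 7, 0, 8, 1 and 4 at 72 hours. Its log2FCs of 0.97 (SE 1.16, edgeR adjusted p = 0.64) and 1.29 (SE 1.09, edgeR adjusted p = 0.631) did not pass. P4ha1, a collagen prolyl hydroxylase subunit, had 1 to 15 counts and fold changes of 0.85 and 0.75 (edgeR adjusted p = 0.539 and 0.713).

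Among the pentose phosphate enzymes the lowest fold changes against spleen came from Tkt, transketolase, the enzyme of the non-oxidative branch that links pentose phosphates back to glycolysis. Tkt (ENSMUSG00000021957, chromosome 14 from 30548359 to 30574720 on the plus strand of GRCm38, with no exon on the opposite strand) had 107, 99.3 and 29.3 normalized CPM in the spleens. The 24-hour libraries had 27.1, 32.4, 13.4 and 18.2 and the 72-hour libraries 23.9, 31.1, 20.1, 18.8 and 21.4. Spleen replicates 1 and 2 lay over 3 times above every liver library, whereas spleen replicate 3 fell below 24-hour replicate 2 and 72-hour replicate 2. The fitted log2FC was -1.77 at 24 hours (SE 0.38, edgeR adjusted p = 0.00464) and -1.76 at 72 hours (SE 0.35, edgeR adjusted p = 0.00310), and 0.02 between the liver groups (SE 0.35, edgeR adjusted p = 0.988). Tkt was called in all 23 alternatives in both comparisons, with values from -2.17 to -1.48 and from -2.15 to -1.47. The weakest were those without spleen replicate 1 (adjusted p = 0.0455 and 0.0488), and the strongest those without spleen replicate 3 (adjusted p = 0.000141 and 6.96e-05).

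G6pdx, glucose 6-phosphate dehydrogenase, makes the first NADPH of the pathway. It had 86.3, 77.9 and 35.7 normalized CPM in the spleens, 54.2, 72.6, 42.4 and 67.1 at 24 hours and 47.2, 46.6, 40.5, 27.8 and 33.1 at 72 hours. The 24-hour libraries fell between the spleens, and the 72-hour libraries lay on both sides of spleen replicate 3, below the other spleens. The fold changes were -0.17 (SE 0.31, edgeR adjusted p = 0.777) and -0.76 (SE 0.29, edgeR adjusted p = 0.157), and the latter became -1.07 and a call without spleen replicate 3 (adjusted p = 0.0204).

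Pgd, phosphogluconate dehydrogenase, which makes the second NADPH, had 182, 199 and 123 normalized CPM in the spleens. It had 123, 151, 72.1 and 99.2 at 24 hours and 158, 108, 123, 140 and 143 at 72 hours, overlapping the spleens in both groups. Its fold changes of -0.59 (SE 0.26, edgeR adjusted p = 0.153) and -0.32 (SE 0.25, edgeR adjusted p = 0.582) did not pass. Taldo1, transaldolase, the partner of Tkt in the non-oxidative branch, had 74.7 ± 21.7, 53.7 ± 10.4 and 81.3 ± 14.8 (SD; n = 3, 4 and 5). All 72-hour libraries of Taldo1 lay above all 24-hour libraries, at 0.60 on the log2 scale (SE 0.24, edgeR adjusted p = 0.161).

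Both glycogen genes were below zero against spleen. Pygl, the liver-type glycogen phosphorylase that neutrophils also use, had 215, 186 and 119 normalized CPM in the spleens. It had 130, 107, 51.6 and 75.9 at 24 hours and 107, 88.8, 116, 130 and 123 at 72 hours, and spleen replicate 3 fell among the liver libraries. The log2FC was -0.93 at 24 hours (SE 0.28, edgeR adjusted p = 0.0423) and -0.62 at 72 hours (SE 0.27, edgeR adjusted p = 0.225). The 24-hour call did not hold without spleen replicate 1 or 2, 24-hour replicate 2, 3 or 4 or 72-hour replicate 1, with values from -1.15 to -0.73 and an adjusted p of up to 0.196. Upper-quartile scaling, genes with no opposite-strand exon and the fit of the compared groups alone did not give the call either (adjusted p of up to 0.0853). Gys1, the muscle-type glycogen synthase, had 0 to 27 counts, and its fold changes of -0.50 and -1.44 had edgeR adjusted p-values of 0.752 and 0.377.

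Counted as libraries that do not overlap, 5 members lay wholly higher and 4 wholly lower at 24 hours than in spleen, where 22.8% of all genes did not overlap in either direction. At 72 hours 4 lay higher and 2 lower, against 12% of all genes. Between the liver groups 3 members (Slc2a3, Bnip3l and Taldo1) lay wholly higher at 72 hours and none lower, against 9.51%. For 9, 6 and 3 of 35 members, these shares are near the background in each comparison.

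Sums over a role were dominated by its larger members. The summed glycolytic enzymes gave 1026, 1064 and 541 normalized CPM in the spleens, 921, 969, 622 and 633 at 24 hours and 760, 787, 699, 595 and 697 at 72 hours. The summed pentose phosphate enzymes gave 465, 461 and 238 in the spleens, 261, 308, 194 and 225 at 24 hours and 320, 254, 287, 256 and 273 at 72 hours. In both sums spleen replicate 3 was about as low as the lowest liver libraries.

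Ratios within a library do not depend on its scaling, and they were computed after the values had been seen, without a test. Pentose phosphate counts per glycolytic count were 0.453, 0.433 and 0.440 in the spleens, so that spleen replicate 3 did not stand apart. They were 0.283, 0.318, 0.311 and 0.356 at 24 hours and 0.421, 0.323, 0.410, 0.430 and 0.392 at 72 hours. Every liver library lay below every spleen, by 0.430 against 0.433 at the nearest, and 72-hour replicate 2 was the one within the 24-hour range. Without Tkt the ratio was 0.349, 0.340 and 0.386 in the spleens, 0.254 to 0.327 at 24 hours and 0.283 to 0.398 at 72 hours, so the 24-hour libraries still lay below the spleens and the 72-hour libraries did not.

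Slc2a1 counts per Slc2a3 count were 0.142, 0.110 and 0.104 in the spleens, 0.838, 0.711, 0.968 and 0.603 at 24 hours and 0.318, 0.271, 0.323, 0.150 and 0.360 at 72 hours. The 3 groups did not overlap, with the 24-hour libraries highest and 72-hour replicate 4 next to the spleens. Both transporters were used in the tests above, so this ratio adds a description and no further test.

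**Figure D3:**
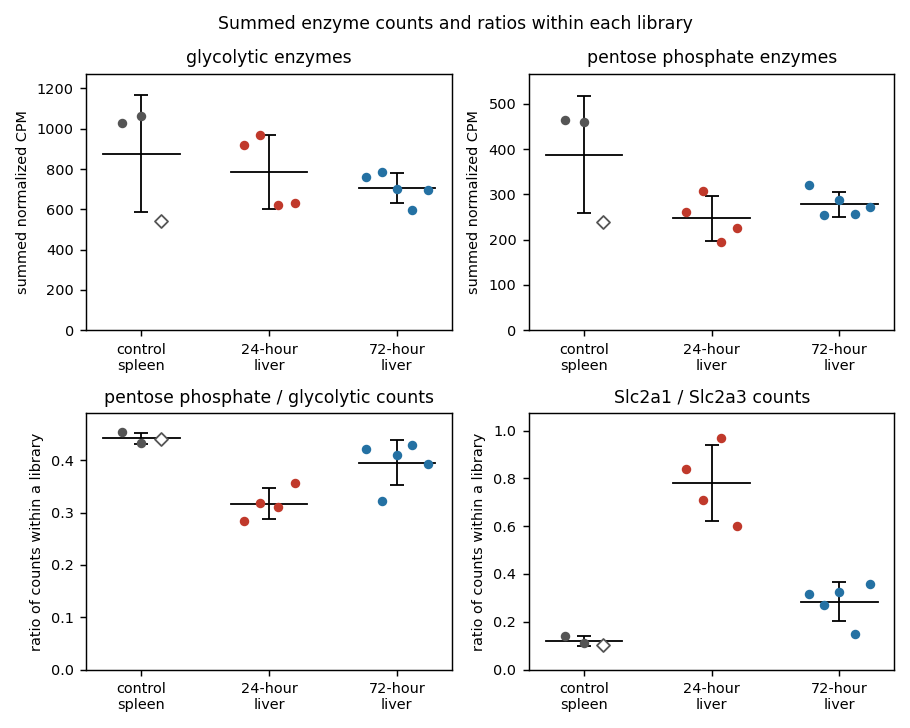
Upper panels: summed normalized CPM of the 16 glycolytic and 4 pentose phosphate enzymes in each library; lower panels: the ratio of pentose phosphate to glycolytic counts and of Slc2a1 to Slc2a3 counts within a library (y axes from 0; lines are means, bars 1 SD, n = 3, 4 and 5; the open diamond is spleen replicate 3). Spleen replicate 3 is low in both sums, at 541 and 238, and level with the other spleens in the first ratio, at 0.440.

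For 13 of the 37 members an exon shares bases with a gene on the opposite strand, and in 7 of these pairs the opposite gene had more counts than the member in all 12 libraries. Slc2a1 (chromosome 4 from 119108711 to 119137983, plus strand) shares 105 exon bases with the antisense gene Gm12868, which had 717 to 3605 counts per library against 32 to 91 for Slc2a1. Gm12868 was higher at 24 hours, as Slc2a1 was, with a log2FC of 2.44 (SE 0.28, edgeR adjusted p = 6.88e-06). From 24 to 72 hours it had -1.62 (SE 0.22, edgeR adjusted p = 0.000885), where Slc2a1 had -0.65.

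Hif1a shares 330 exon bases with Gm15283, which had 365 to 2223 counts against 20 to 77 and log2FCs of 1.93 at 24 hours (edgeR adjusted p = 0.000453) and -1.69 from 24 to 72 hours (edgeR adjusted p = 0.00144). Gm15283 had 251 ± 66.1, 956 ± 307 and 297 ± 123 normalized CPM in spleen, 24-hour and 72-hour neutrophils (SD; n = 3, 4 and 5). Bnip3 shares 504 exon bases with Gm45507, at 1146 to 2431 counts against 3 to 27, which was at 1.14 at 24 hours (edgeR adjusted p = 0.00116) and -0.87 from 24 to 72 hours (edgeR adjusted p = 0.00787). Gpi1 shares 741 with Gm26762, at 3393 to 14687 counts against 57 to 427, which was at 0.28 at 24 hours (edgeR adjusted p = 0.494) and -0.97 from 24 to 72 hours (edgeR adjusted p = 0.0130).

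Of the 13 opposite genes, 3 were called at 24 hours against spleen, all higher, where 5.35% of all tested genes were called higher and 4.4% lower. The other pairs whose opposite gene had more counts in all libraries were Aldoa with Fam57b, G6pdx with Ikbkg and Gys1 with Ruvbl2. Ikbkg and Ruvbl2 were lower at 72 hours than in spleen (-1.14, edgeR adjusted p = 0.0443, and -1.24, edgeR adjusted p = 0.0134), where G6pdx and Gys1 had -0.76 and -1.44 and did not pass. How many reads of each member come from the opposite gene was not tested. Nor was it tested how many reads counted on the opposite gene come from the mRNA of the member. The fold changes of the opposite genes are therefore not given as antisense expression. Among the called members, Slc2a3, Slc16a3, Egln3, Bnip3l, Ddit4, Tkt and Pygl have no opposite exon, and Slc2a1 and Gapdh have one.

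**Figure D4:**
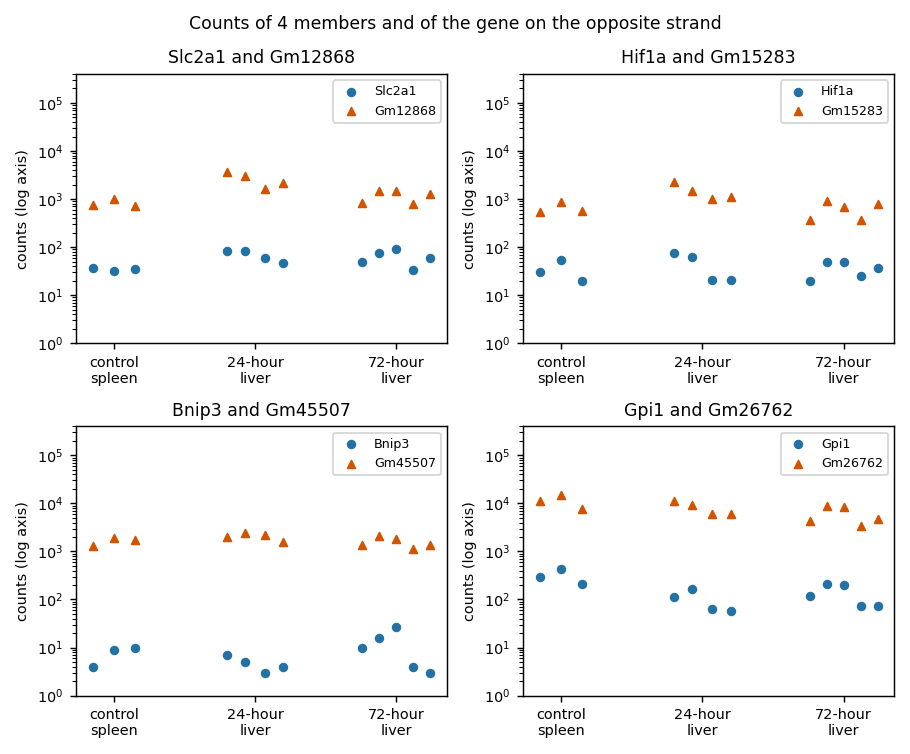
Counts per library (log y axis) of Slc2a1, Hif1a, Bnip3 and Gpi1 (circles) and of the gene whose exons they share on the opposite strand (triangles), by group (x axis). The opposite gene lies above the member in all 12 libraries of each panel, for Gpi1 at 3393 to 14687 counts against 57 to 427, and Gm12868 and Gm15283 are highest at 24 hours.

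A wider list of 70 other genes of glycolysis, pyruvate entry, the pentose phosphate pathway, glycogen and hypoxia held 49 tested genes. At 24 hours 3 were called higher and 1 lower, at 72 hours 1 higher and 1 lower, and between the liver groups none by edgeR. The share of all genes called was 5.35% higher and 4.4% lower at 24 hours and 2.63% and 2.71% at 72 hours, so calls on 49 genes were about as frequent as that or fewer. Bhlhe40, a HIF-induced repressor also known as DEC1, was at 2.48 ± 1.05, 18.8 ± 6.66 and 27.1 ± 21.6 (SD; n = 3, 4 and 5) normalized CPM, with log2FCs of 2.92 and 3.49 (edgeR adjusted p = 0.0133 and 0.00357). Adpgk, the ADP-dependent glucokinase, was lower in both, at 75.6 ± 44.3, 5.04 ± 3.80 and 3.76 ± 2.33, with -3.85 and -4.36 (edgeR adjusted p = 0.000232 and 2.36e-05). Slc2a6, a transporter of lysosomal membranes in myeloid cells, was at 0.93 and Gapdhs, the sperm-type paralogue of Gapdh, at 1.16 at 24 hours (edgeR adjusted p = 0.0436 and 0.0111). Bhlhe40, Adpgk and Gapdhs share 118, 194 and 162 exon bases with a gene on the opposite strand. The median over the 49 was -0.40 and -0.15 against spleen, beside -0.23 and -0.02 for all genes.

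Marker lists were counted beside the label of the sorted cells. The strand limit given above holds for these genes too, so neither a marker at 0 nor a high one can decide the purity of the cells. Neutrophil markers summed to 2164 to 9152 normalized CPM in the spleens, 1148 to 2681 at 24 hours and 2102 to 2779 at 72 hours, with Camp at 0 at 24 hours, and S100a8, S100a9, Camp and Ngp were called lower in both liver groups. Ly6g, the marker used for sorting, was called lower at 72 hours only (log2FC -2.69, edgeR adjusted p = 0.0129). Csf3r, Cxcr2, Itgam, Mmp9 and Retnlg of the same list were not called against spleen in either liver group. Of 8 hepatocyte markers, 3 had a count at 24 hours and 7 at 72 hours, with sums of 0 to 2.92 at 24 hours. At 72 hours replicates 2 and 3, the libraries of low unaligned share, had 7.95 and 19.8, and the others 0 to 1.08. The 8 macrophage markers summed to 105 to 164 in the spleens, 140 to 212 at 24 hours and 127 to 194 at 72 hours, with Clec4f and C1qa at 0 throughout. The 5 B cell markers summed to 50.6 to 64.0, 29.7 to 63.0 and 30.7 to 53.5. The 6 T cell markers reached 7.07 at most, the 5 endothelial markers 27.4 to 69.8, and 6 markers of immature neutrophils 685 to 2012, with Elane at 0 in every library. Nearly all of the last sum was Mki67, at 675 to 2008 and not called in any comparison. Top2a of the same list had 1.93 to 9.74 in the spleens and at most 1.24 in the livers and was called lower in both liver groups (edgeR adjusted p = 0.0226 and 0.0249). Their part in the members' values was not tested.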

How the data were processed

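The authors aligned reads to GRCm38 (STAR 2.7.9a in the submitters' processing notes), obtained gene counts with HTSeq-count, and deposited them unnormalized for the 12 libraries in 1 table; the strand option is not given in the sources used here. The 5 summary rows were left out, and every column was mapped to a sample by name. Genes with over 1 CPM in at least 3 samples were kept (12488), scaled by TMM and fitted with edgeR 4.0.16 (quasi-likelihood test) in R 4.3.3 over all groups. The TMM factors were 1.17 to 1.24 in the spleens, 0.740 to 0.860 at 24 hours and 1.03 to 1.14 at 72 hours. These ranges do not overlap, so fold changes between the groups, at 24 hours above all, depend on this scaling. Standard errors are the absolute log2 fold change over the root of F. The script was tested on simulated data. Alternatives used limma 3.58.1 (voom) and DESeq2 1.42.0, other scalings and filters, fewer samples and a replicate block; those without 2 of the 72-hour replicates were added after seeing the data. Named in full are called members and 14 chosen by function. The members and lists were chosen with earlier results of these data known. One marker of the erythroid list is not reported here. Exons and coordinates are from GENCODE on GRCm38 and promoters from RefSeq. Depth limits members at a few counts.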

Additional observations from a re-analysis of the deposited data

Results flagged for a closer look

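Over 86 groups of values (the 35 tested members and 8 sums, each at 24 and 72 hours), 3 had a library whose gap to its neighbour exceeded Dixon's 95% critical value, where chance flags about 1 in 20 groups. At 72 hours Aldoa had its lowest value in replicate 4, at 47.9 normalized CPM, and Pgk1 in the same replicate, at 1.39. Gys1 had its highest 72-hour value in replicate 3, at 5.26. Slc2a3 differed between the liver groups when their effects against the shared spleens were compared, by 0.86 on the log2 scale (edgeR adjusted p = 0.0381), a call that most fits with a library left out did not keep.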

How the results depend on the processing

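Members called numbered 7 at 24 hours and 4 at 72 hours against spleen and 1 between the liver groups. Leaving out each library in turn gave 3 to 8, 1 to 6 and 0 to 1 members. Calls over all genes (higher and lower) moved as well. At 24 hours they ran from 336 and 239 of 12140 (without spleen replicate 1) to 726 and 594 of 12296 (without 72-hour replicate 4). At 72 hours they ran from 160 and 154 of 12218 (without spleen replicate 2) to 430 and 405 of 12296 (without 72-hour replicate 4). Between liver groups they ran from 51 and 131 of 12415 (without 24-hour replicate 1) to 302 and 494 of 12205 (without spleen replicate 3). At 72 hours 2 members were called among genes with no exon on the opposite strand (177 higher and 183 lower of 7485 genes). Fewer genes were tested there, and Slc2a1 and Gapdh were left out. Without 72-hour replicates 2 and 3, 1 member was called (138 and 149 of 12057 genes). Between the liver groups no member was called with upper-quartile scaling, limma-voom (the test of the study), the replicate block or genes with no opposite-strand exon. None was called there without 72-hour replicates 2 and 3 or 4 and 5, and the cause was not tested. Limma-voom did not call Egln3 and Bnip3l at 24 hours. Among all genes, called higher and lower from 24 to 72 hours were 157 and 457 with upper-quartile scaling, against 206 and 355.

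Same-numbered samples did not deviate together: of 10 pairs the correlations ran from -0.116 to 0.13, with 1 over 0.1, so the numbers were not taken to pair samples. With the replicate block, members called were 7, 3 and 0. Of 12488 genes, 710, 464 and 217 were called higher and 592, 410 and 382 lower with it. No called member changed sign under any alternative run. Of 272 alternative values of the called members, 206 kept the call and 66 did not.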
